A study of Mus musculus with 8 samples.

Results

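Foxo1, Foxo3, Klf2, Klf3, Klf4, Klf6, Klf7, Klf13 and Satb1 are transcription and chromatin factors linked to lymphocyte quiescence and to the choice between follicular and marginal zone B cell fates. They were chosen by name, with earlier results of these data known. Every probe set that the platform annotation pairs with 1 of these 9 genes alone was taken. This gave 34 of the array's 45101 probe sets. RNA came from splenic B cells of 12-week-old C57BL/6 mice, irf4-/- (Irf4 null, n = 4 arrays) or irf4+/+ littermates (wild type, n = 4 arrays). The B cells were obtained by removing other cells with magnetic beads, which leaves some cells of other types. The deleted part of Irf4 and the sex of the mice are not in the labels. Nor do they say that the 4 samples of a genotype were 4 separate mice, so the p-values rest on a spread between samples that may be technical in part.

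Quiescent lymphocytes are small cells that neither grow nor divide, and several transcription factors hold them in that state. FOXO proteins enter the nucleus when PI3K and AKT signalling is low, bind forkhead sites, and switch on genes of homing, cell cycle arrest and receptor editing. AKT phosphorylates them and sends them back to the cytoplasm. Krüppel-like factors (KLF) bind CACCC boxes and GC-rich DNA. KLF2 is itself a FOXO1 target in lymphocytes and drives receptors of lymphocyte traffic. Mouse B cells without Klf2 or Foxo1 shift towards the marginal zone type, and Klf3 promotes that type.

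Of the 9 genes, Foxo1 was lower in Irf4 null B cells at the threshold used (2 of its 3 tested probe sets, by 33.1% and 36.2%), and no probe set of the other 8 genes passed. A probe set was called when its limma p, adjusted over all 27022 probe sets tested (Benjamini-Hochberg), was below 0.05. Of the 34 member probe sets 31 were bright enough to be tested, 2 were called lower and 0 higher, where 1.51% of all probe sets tested were called lower, 2.01% higher and 3.52% either way. At an unadjusted p below 0.05 there were 11 of 31, all lower, against 8.01% of all probe sets lower and 17.1% either way. The log2 fold change, Irf4 null minus wild type, lay below 0 on 30 of the 31 with a median of -0.28, while 49.4% of all probe sets tested lay below 0 with a median of 0.0030. Probe sets of 1 gene read the same RNA on the same 8 arrays, so these 31 values are not independent. The genes were chosen with earlier results of these data known, so setting them beside all probe sets is not a blind comparison. The number below 0 was also 30 after quantile normalization, 31 with arrays centred on their medians, 28 with a term for the Xist split described next, 29 within the Xist-high arrays and 22 within the Xist-low arrays.

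**Figure D1:**
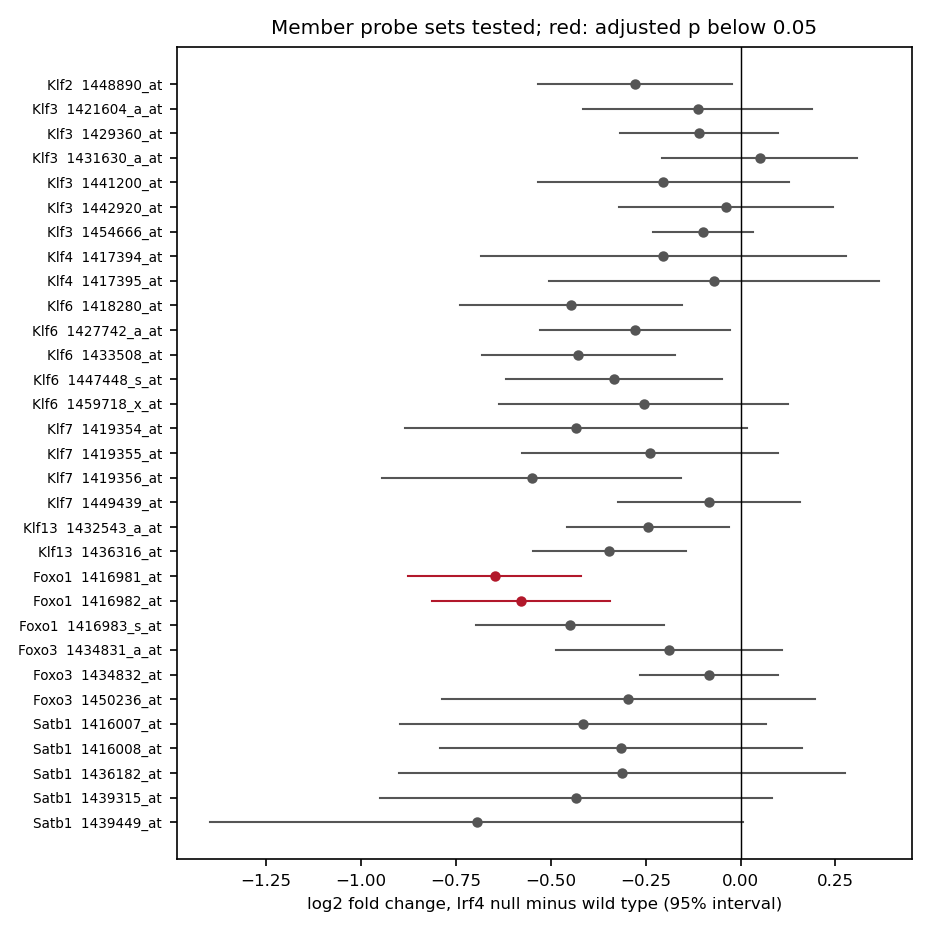
Log2 fold change (Irf4 null minus wild type) of each of the 31 member probe sets tested, with 95% intervals from the limma fit; red marks an adjusted p below 0.05. The 2 called probe sets both belong to Foxo1, and the intervals of most other probe sets reach or come near 0.

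The targeted gene went with the labels, though whether its probe set lies in the deleted part is not known. The brighter Irf4 probe set read 1720 to 2341 in wild type and 244 to 315 in Irf4 null. Another split of the arrays cut across genotype. Xist, the RNA of the inactive X chromosome of females, read between 17119 and 19652 on 4 arrays, wild-type 1, 3 and 4 with Irf4 null 1 (Xist-high). It read 49.2 to 94.8 on the remaining arrays, wild-type 2 and Irf4 null 2, 3 and 4 (Xist-low). The mean log2 signal of 60 markers of other blood cells was 7.93 to 8.34 on the Xist-high and 8.94 to 9.64 on the Xist-low arrays. Summed neutrophil markers (11 of 12 tested, 0 called) ranged from 5898 to 55726 in wild type and 11186 to 77694 in Irf4 null, and summed T cell markers (9 of 12 tested, 0 called) from 996 to 2025 and 1195 to 9383. Summed monocyte and macrophage markers (10 of 12 tested, 0 called) ranged from 11130 to 37896 and 15795 to 33054, and NK cell markers (9 of 10 tested, 3 higher) from 2437 to 7579 and 4352 to 13045. In wild type the high end of each of these ranges was array 2. Platelet markers (7 of 8 tested) held 2 genes called higher, and erythroid (7 of 10) and dendritic cell markers (7 of 8) none. No marker was listed at 0. B cell markers such as Ms4a1 and Cd79b (7 of 8 tested, 0 called) summed to 66389 to 77954 and 68243 to 74843. Results are therefore also given with an Xist-high term in the fit and with the mean of the 60 markers as a covariate. Fits without wild-type array 2 keep only Xist-high arrays in wild type, against Irf4 null arrays that are mostly Xist-low. In RNA of whole preparations, fewer cells of a type and less RNA per cell cannot be told apart.

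The promoters of Foxo1, the gene that was called, and of Klf6, whose 5 probe sets all lay below 0, are shown from 250 bases before to 50 after the RefSeq start (build GRCm38.p6, plus strand for both genes). Capitals mark the GC box GGGCGG on either strand, DNA of the kind that KLF proteins bind. The Foxo1 window is chr3:52268087-52268386 and the Klf6 window chr13:5861239-5861538.
Foxo1: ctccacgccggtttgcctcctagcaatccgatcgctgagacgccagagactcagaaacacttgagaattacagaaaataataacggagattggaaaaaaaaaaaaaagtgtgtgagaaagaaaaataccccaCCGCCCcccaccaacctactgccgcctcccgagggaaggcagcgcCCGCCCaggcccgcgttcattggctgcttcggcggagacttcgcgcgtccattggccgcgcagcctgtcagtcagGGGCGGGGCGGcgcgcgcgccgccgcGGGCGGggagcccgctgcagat
Klf6: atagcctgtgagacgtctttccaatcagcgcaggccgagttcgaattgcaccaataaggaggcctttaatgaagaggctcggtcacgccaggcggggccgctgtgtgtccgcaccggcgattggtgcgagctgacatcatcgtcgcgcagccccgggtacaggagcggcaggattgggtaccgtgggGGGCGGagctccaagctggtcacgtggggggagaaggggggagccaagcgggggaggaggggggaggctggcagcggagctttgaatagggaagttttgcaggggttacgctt
The Foxo1 window held 5 GC boxes, of which 2 overlap, and the Klf6 window held 1. All 9 genes matched the promoter table, with 13 windows in all because Satb1 has several starts, and 9 windows, at least 1 for each gene, held a GC box, against 35.7% of the 32851 windows in the table. By base content, 61.3% of the Foxo1 window and 63% of the Klf6 window was G or C, against a median of 52.7% over all windows. The part of base content in the GC box counts was not tested. CACCC boxes lay in 8 windows, of Klf2, Klf3, Klf7, Klf13 and Satb1, against 57.5% of all windows. The forkhead site GTAAACA (3.65% of all windows), the interferon-stimulated response element core (GAAA, any 2 bases, GAAA; 3.44%), the Ets-IRF composite element (GGAA, any 2 bases, GAAA; 2.72%) and the AP-1 site TGANTCA (7.81%), searched on both strands, had 0 matches in the 13 windows. The interferon and Ets-IRF elements can overlap. These are matches of letters in a short window and say nothing about binding.

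Foxo1, the main FOXO factor of B cells, was lower on all 4 Irf4 null arrays than on all 4 wild-type arrays with each of its 3 bright probe sets. Probe set 1416981_at read 3092, 2480, 3025 and 2634 in wild type (arrays 1 to 4) and 1975, 1564, 1938 and 1670 in Irf4 null. It fell by 0.65 ± 0.10 on the log2 scale (SE, limma, adjusted p = 0.0065, n = 4 and 4), from a mean signal of 2808 ± 297 (SD) to 1787 ± 201. Probe set 1416982_at read 1615, 1457, 1606 and 1604 on the wild-type arrays against 1112, 839, 1139 and 1122 on the null arrays. It fell by 0.58 ± 0.11 (adjusted p = 0.0141). Each genotype had its lowest value of this probe set on array 2, and the other arrays lay close together. Probe set 1416983_s_at, the brightest, read 3631, 3123, 3613 and 3536 on the wild-type arrays against 2877, 2316, 2945 and 2111 on the null arrays. The groups were again apart, but the value of -0.45 ± 0.11 missed the threshold (adjusted p = 0.0537). It was called in 6 of the 22 alternatives, among them without wild-type array 2 (-0.50, adjusted p = 0.0252) and without Irf4 null array 3. The remaining Foxo1 probe set was dim on every array, 3.85 to 22.9, and was not tested.

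The size of the Foxo1 difference was similar on both sides of the Xist split. For 1416981_at it was -0.56 within the Xist-high arrays and -0.53 within the Xist-low arrays, and for 1416982_at -0.53 and -0.50. Neither passed within such a subset, where 1 array stands against 3 (adjusted p from 0.0968 to 0.425). With the Xist-high term both were called (-0.54, adjusted p = 0.0195, and -0.51, adjusted p = 0.0498), where 0.947% of all probe sets were called lower. With the marker covariate 1416981_at was called (-0.54, adjusted p = 0.0356) and 1416982_at was not (-0.49, adjusted p = 0.0728). Without wild-type array 1 or without wild-type array 4, 1416982_at also missed the threshold (adjusted p = 0.0512 and 0.052). The brightest probe set, 1416983_s_at, was not called after either adjustment. Its fold was -0.34 with the Xist-high term (limma, adjusted p = 0.18) and -0.38 with the marker covariate (adjusted p = 0.214). On the Xist-high side of the split its fold was -0.32, and on the Xist-low side -0.36. At 1 probe set per gene, the brightest, Foxo1 was not called; as the mean of its 3 tested probe sets it was (-0.56 ± 0.09, adjusted p = 0.00938).

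**Figure D2:**
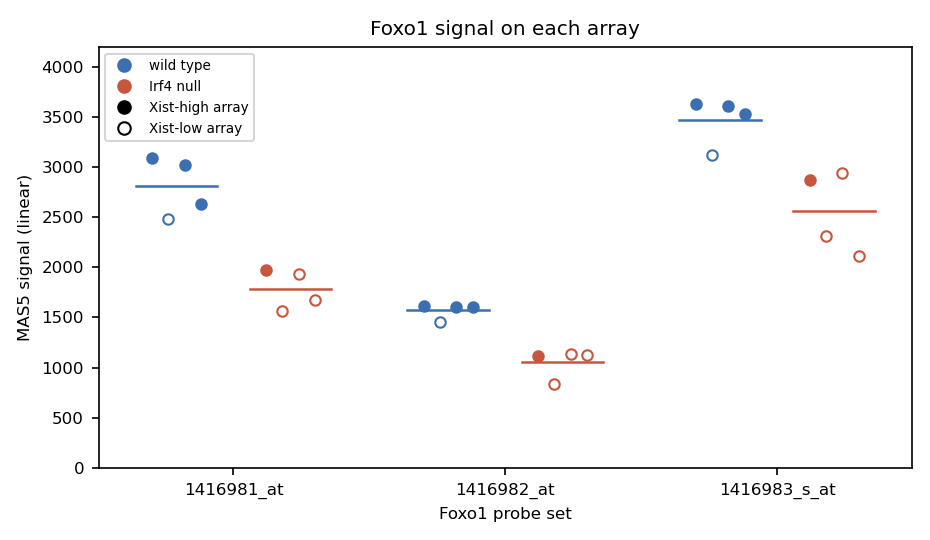
MAS5 signal (linear scale) of the 3 bright Foxo1 probe sets on each array; lines are group means, blue is wild type, red is Irf4 null, and open circles are Xist-low arrays. On each probe set all 4 Irf4 null arrays lie below all 4 wild-type arrays.

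The genes Lratd2, Dusp7 and Bach2 had the array patterns closest to Foxo1 1416981_at among 11801 other genes, by the root mean square difference of log2 deviations from the gene mean over 8 arrays. The differences were 0.077 for Lratd2, 0.083 for Dusp7, which encodes a phosphatase of MAP kinases, and 0.094 for Bach2, a transcriptional repressor of B cells. For scale, Foxo1 itself had a root mean square deviation of 0.35. Bach2 read 10159, 8676, 10386 and 10524 on the wild-type arrays against 7371, 6091, 6673 and 6402 on the null arrays. Its groups did not overlap, and like Foxo1 1416981_at it was lowest on array 2 of each genotype. The genes were picked by this likeness on the same 8 arrays, so it adds nothing to the Foxo1 result.

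Foxo3, the other FOXO factor, overlapped between genotypes on all 3 probe sets and none passed. Probe set 1434831_a_at read 1688, 2176, 2046 and 2365 on the wild-type arrays against 1789, 1812, 2218 and 1457 on the null arrays, and its fold of -0.19 had a 95% interval from -0.49 to 0.11. The steadier 1434832_at read 912 to 1051 in wild type and 912 to 966 in Irf4 null. Its interval, -0.26 to 0.10, does not reach the Foxo1 folds, but it overlaps the interval of Foxo1 1416983_s_at (-0.70 to -0.20). The interval of 1434831_a_at covers the fold of that Foxo1 probe set, -0.45. Foxo3 was not tested against Foxo1. The remaining Foxo3 probe set was dim, 34.8 to 72.3.

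Klf2, which drives sphingosine receptor and homing receptor genes in resting lymphocytes, was bright in both genotypes. Its only probe set read 10087, 10034, 9321 and 10709 on the wild-type arrays against 9816, 8125, 9068 and 6437 on the null arrays. The groups overlapped through Irf4 null array 1, the Xist-high one, and array 4 was the lowest. The fold was -0.28 ± 0.12 (limma, adjusted p = 0.244) with an interval from -0.53 to -0.023, and without Irf4 null array 4 it was -0.16. It was -0.030 within the Xist-high against -0.36 within the Xist-low arrays. Such a difference between the subsets was not called for any member probe set (interaction term, chosen after the data were seen; limma, 0 of 31 called, 2 at an unadjusted p below 0.05, smallest adjusted p = 0.634).

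Klf3, a repressor of the family that promotes marginal zone B cells, differed little. None of its 6 tested probe sets passed, and their folds ran from -0.20 to 0.050. The brightest, 1454666_at, read 8404, 8375, 8111 and 8458 on the wild-type arrays against 8084, 8085, 7485 and 7481 on the null arrays. These groups were apart by a small step, with a fold of -0.10 ± 0.06 (adjusted p = 0.446) and an interval from -0.23 to 0.032. The 5 other tested probe sets overlapped between genotypes, and 1 more was dim (5.38 to 24.8).

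Klf13, a family member that binds GC-rich promoters, had 2 bright probe sets, both lower in mean and neither called. Probe set 1436316_at read 3505, 3409, 3705 and 3786 on the wild-type arrays against 3217, 2677, 3020 and 2455 on the null arrays. All Irf4 null arrays lay below all wild-type arrays, and the fold was -0.35 ± 0.09 (limma, adjusted p = 0.0678). Adding the Xist-high term moved it to -0.26 (adjusted p = 0.227), and it passed with array weights, without wild-type array 2 (-0.37, adjusted p = 0.0428), and without Irf4 null array 1 (-0.41, adjusted p = 0.0454). Probe set 1432543_a_at read 1810 to 2270 in wild type and 1596 to 1914 in Irf4 null, which overlap, with a fold of -0.24. The remaining probe set was dim (14.7 to 71.7).

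In all, 7 of the 31 tested probe sets had every Irf4 null array below every wild-type array, where 5.33% of all probe sets tested did. They were the 3 of Foxo1, 2 of Klf6 and 1 each of Klf3 and Klf13.

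Klf6, a broadly expressed family member that is also high in myeloid cells, had 5 probe sets with folds from -0.45 to -0.25. The brightest, 1433508_at, read 2710, 3933, 3529 and 2968 on the wild-type arrays against 2311, 2672, 2458 and 2236 on the null arrays. Probe set 1418280_at read 1441, 2033, 1681 and 1331 on the wild-type arrays against 1133, 1271, 1272 and 1021 on the null arrays. The groups were apart on both, and wild-type array 2, with many markers of other cells, was the highest array of all. Without adjustment for that split neither was called (-0.43, adjusted p = 0.0746, and -0.45, adjusted p = 0.1). With the Xist-high term both were called (-0.54, adjusted p = 0.038, and -0.58, adjusted p = 0.0496), and with the marker covariate both were again (-0.60, adjusted p = 0.0183, and -0.65, adjusted p = 0.0174), together with 1447448_s_at (-0.53, adjusted p = 0.0402). Without wild-type array 1, 1433508_at was called as well (-0.51, adjusted p = 0.0497). With the covariate 0.888% of all probe sets were called lower. The 3 other Klf6 probe sets overlapped between genotypes on the signals as deposited. Whether other cells contributed to the Klf6 signal was not tested.

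Klf4, an antiproliferative factor that FOXO proteins can activate and that monocytes also express, had its highest signal on wild-type array 2. Probe set 1417394_at read 868, 1518, 906 and 741 on the wild-type arrays against 660, 1025, 1027 and 718 on the null arrays. The groups overlapped. The mean log2 signal of other-cell markers was 9.32 on wild-type array 2 and 9.44, 9.64 and 8.94 on Irf4 null arrays 2 to 4. Whether other cells contributed to the Klf4 signal was not tested. The fold was -0.20 ± 0.22 (limma, adjusted p = 0.701), and without wild-type array 2 it was 0.0091. With the marker covariate it was -0.65 (adjusted p = 0.0179), the only setting in which a Klf4 probe set was called. The other Klf4 probe set had a fold of -0.071 and was also highest on wild-type array 2 (506 against 258 to 393 elsewhere).

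Klf7 had 4 probe sets with folds from -0.55 to -0.084, none called. Probe set 1419356_at read 536, 918, 791 and 750 on the wild-type arrays against 521, 456, 643 and 400 on the null arrays, with a fold of -0.55 ± 0.18 (limma, adjusted p = 0.133). The overlap came from wild-type array 1 and Irf4 null array 3. Its neighbour 1449439_at read 656 to 841 and 626 to 766, with a fold of -0.084, so the probe sets of Klf7 disagree in size.

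Satb1, a chromatin organiser best known from T cell development, was ordered by the Xist split more than by genotype on its brightest probe set. Probe set 1416007_at read 5886, 2938, 5048 and 6172 on the wild-type arrays against 4605, 3481, 3725 and 2836 on the null arrays. The 4 Xist-high arrays were the 4 highest, from 4605 to 6172, and wild-type array 2 read less than all but 1 Irf4 null array. The fold was -0.42 ± 0.22 (limma, adjusted p = 0.372), and -0.062 with the Xist-high term. On 1439315_at and 1439449_at the Xist-high arrays were not the 4 highest, and the folds with that term were -0.25 and -0.35. On the Xist-low arrays alone all 5 Satb1 probe sets had folds above 0 (0.041 to 0.48), and within the Xist-high arrays all 5 lay below 0. Without wild-type array 2, 3 of the 5 were called lower (1416007_at at -0.65, adjusted p = 0.0187), in a fit that called 3.24% of all probe sets lower. That fit keeps only Xist-high arrays in wild type, so genotype and the Xist split largely coincide in it. Summed T cell markers read 996 to 1911 on the Xist-high arrays. They read 2025 on wild-type array 2 and 3311, 9383 and 2470 on Irf4 null arrays 2 to 4. The Xist-high arrays were thus lower in these markers and higher in Satb1 1416007_at. Within the Xist-low arrays both were highest on Irf4 null array 3. The part of T cells in these values was not tested.

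**Figure D3:**
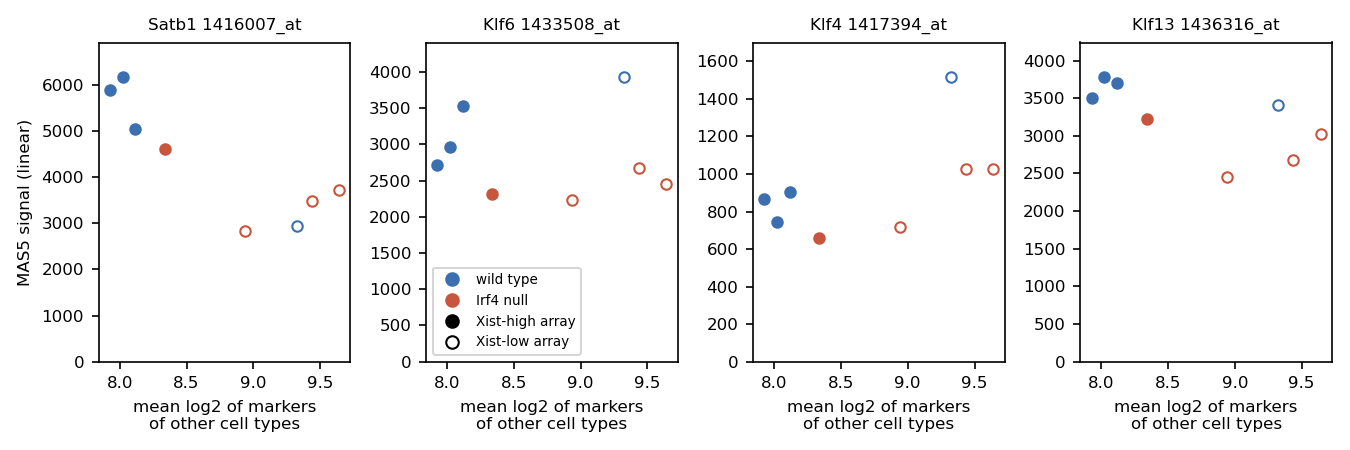
MAS5 signal (linear scale) of 1 probe set each of Satb1, Klf6, Klf4 and Klf13 against the mean log2 signal of 60 markers of other cell types on the same array; blue is wild type, red is Irf4 null, and open circles are Xist-low arrays. Satb1 is highest on the 4 Xist-high arrays, while Klf6 and Klf4 are highest on wild-type array 2.

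Genes that act with these factors were taken from lists of names, at 1 probe set per gene, the brightest. These lists, like the members, were chosen with earlier results of these data known. Of 11802 genes tested, 4.37% were called, 2.67% higher and 1.7% lower, with a median of 0.025. Among 24 FOXO targets tested of 27 listed, 3 fell, 0 rose and 21 did not pass, and the median was -0.25. Bcl6, the repressor that germinal centre B cells need, read 3754, 3604, 3320 and 3948 on the wild-type arrays against 2174, 2112, 2102 and 2115 on the null arrays. It fell by 0.78 ± 0.07 (limma, adjusted p = 0.00028), and its other tested probe set also fell. Rictor, the subunit that defines mTOR complex 2, which activates AKT, fell by 0.54 ± 0.09 (adjusted p = 0.00968). Only 1 of the 4 other tested Rictor probe sets was called lower, and the call was lost in 3 of 22 alternatives, among them the marker covariate (-0.48, adjusted p = 0.0506). The pseudokinase gene Trib2 fell by 0.79 ± 0.17 (adjusted p = 0.0282). It lost its call in 10 of 22 alternatives, among them the Xist-high term (-0.59, adjusted p = 0.0794) and the marker covariate (-0.60, adjusted p = 0.131), and its other tested probe set was not called. With the marker covariate 1 of the 24 was called, and without wild-type array 2, 5.

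Of 31 regulators of FOXO proteins tested of 35 listed, 3 fell, 0 rose and 28 were not called, with a median of -0.11. Rictor is also on this list. Sgk1, a kinase that phosphorylates FOXO proteins as AKT does, read 2200, 1537, 1799 and 1559 on the wild-type arrays against 985, 1048, 1453 and 951 on the null arrays. It fell by 0.68 ± 0.15 (limma, adjusted p = 0.0353) and lost its call in 12 of 22 alternatives. Inpp4b, a phosphatase that removes a PI3K product, fell from 363 ± 55.0 (SD) to 113 ± 86.9 (adjusted p = 0.042) and lost its call in 10 of 22. Without wild-type array 2, 5 of the 31 were called lower, and with the marker covariate 1 was.

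Among targets of KLF2 and KLF3 there was a single call. Of 10 tested of 11 listed, 1 rose, 0 fell and 9 were not called, with a median of 0.093. Cxcr3, a chemokine receptor gene that Klf2 restrains in T cells, rose by 1.08 ± 0.26 (limma, adjusted p = 0.0468), from 173, 465, 261 and 227 in wild type to 438, 608, 750 and 544 in Irf4 null. The groups overlapped through wild-type array 2, and with the Xist-high term it was not called (0.69, adjusted p = 0.0901). The call was lost in 14 of 22 alternatives. NK and T cells also carry Cxcr3. On Irf4 null arrays 1 to 4 the summed NK cell markers were 4352, 9556, 13045 and 8204, and on the wild-type arrays 2437, 7579, 3070 and 2480. Their part was not tested. Ccr7, a homing receptor gene also on the FOXO list, had a fold of -0.70 ± 0.18 (adjusted p = 0.0651).

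Among 9 tested relatives of the members none passed (limma), with Klf5 at 0.88 ± 0.21 (adjusted p = 0.0503) with a low mean signal of 66.3 in wild type. Klf12 read 289, 83.6, 336 and 484 on the wild-type arrays against 696, 540, 562 and 579 on the null arrays, a fold of 1.17 ± 0.39 (adjusted p = 0.145). The groups did not overlap, and wild-type array 2 lay far below the other wild-type arrays. With the Xist-high term Klf12 was called higher (1.72, adjusted p = 0.0112). Of 21 other quiescence factors tested of 22 listed none passed either, with a median of -0.12. The RNA-decay factor gene Zfp36l2 had -0.52 ± 0.13 (adjusted p = 0.0553) and Tsc22d3, a glucocorticoid-induced gene, -0.73 ± 0.21 (adjusted p = 0.0991).

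The subset lists set the members beside markers of the B cell fates they act on. Of 14 marginal zone markers tested 8 rose, 0 fell and 6 were not called, with a median of 0.92, and Dtx1 had the smallest adjusted p (1.44 ± 0.10, limma, adjusted p = 4.0e-05), though its other tested probe set was not called. Plxnd1 rose by 2.14, Dph5 by 1.23 and Cd1d1 by 1.14. With the Xist-high term 8 were called higher and 1 lower, and within the Xist-low arrays 2 and 1. Of 8 follicular markers tested of 9 listed, 2 fell, 0 rose and 6 did not pass. These were Bcl6 and Fcer2a, the low-affinity IgE receptor CD23 (-1.17 ± 0.17, adjusted p = 0.003). Klf2 is itself on that list. Of 28 cell cycle genes tested of 29 listed, 1 rose, Nusap1 (1.13 ± 0.25, adjusted p = 0.0336), 0 fell and 27 did not pass. Nusap1 lost its call in 11 of 22 alternatives, among them the marker covariate (0.63, adjusted p = 0.0558), and its other tested probe set was not called. The list's median was 0.61, and 0.21 once the Xist-high term was included. Summed signals of these genes were 51805 on wild-type array 2 and 35082 to 41574 on the other wild-type arrays. In Irf4 null they were 41272 on array 1, the Xist-high one, and 50772 to 59342 on the others. Without wild-type array 2, only Xist-high wild-type arrays remain, and 15 of the 28 were called higher. That fit called 1297 of all 27022 probe sets tested higher.

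**Figure D4:**
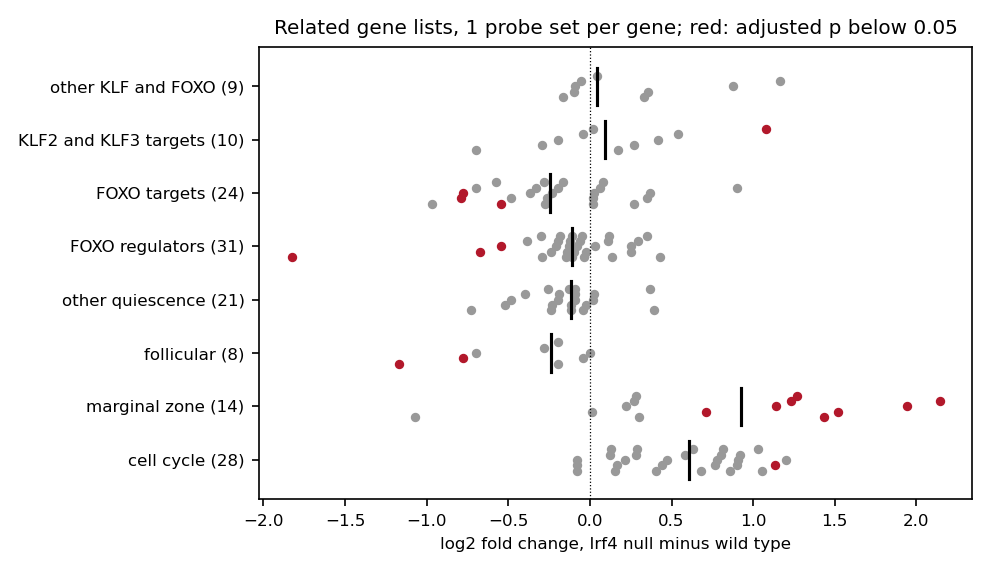
Log2 fold change (Irf4 null minus wild type) of each gene tested in the related lists, 1 probe set per gene; black bars are list medians, red marks an adjusted p below 0.05, and the number tested is in parentheses. Red points lie below 0 for FOXO targets, FOXO regulators and follicular markers. They lie above 0 for marginal zone markers, for Cxcr3 on the list of KLF2 and KLF3 targets and for the cell cycle gene Nusap1.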

How the data were processed

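RNA of 8 samples (6 µg each, per the labels' protocols) was hybridised to 1 Affymetrix mouse array per sample. The deposited unit is a linear intensity for each probe set, and the submitters' processing notes name MAS5. No source used here gives its version or scaling target. Each array's mean, trimmed by 2% at either end, came to 500.003, so no further normalization was applied. The table has no detection calls, and having 4 arrays per genotype limits precision.

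Gene names came from the platform annotation, with symbols updated by gene identifier to RefSeq (34754 of 34958 matched); a Foxo3 probe set shared with another gene was left out. Without the 64 control probe sets, log2(signal + 16) was tested with limma 3.58.1 in R 4.3.3 (lmFit, eBayes with a variance trend). The lowest 40% by mean log2 over all arrays were dropped (signals up to about 42.9), which left 27022 probe sets. The added 16 shrinks folds of dim probe sets. On simulated data made from the 27022 probe sets, 34.9% of 1.5-fold, 61.2% of 2-fold and 92.5% of 4-fold changes were recovered, and 3 of 129 calls were false; the simulated noise was independent between genes, unlike the arrays.

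The members and lists were chosen with earlier results of these data known, as were the Xist-high term (Xist signal over 1000) and the covariate of other-cell markers (60 of 72 listed were tested). Named genes are all members, up to 4 called genes of each list with the smallest adjusted p (or 2 where none was called), the 3 genes closest in pattern to a called member, Irf4 and Xist; Ccr7 and B cell markers were named besides, after their values were seen. Alternatives were the pseudocount, the filter, quantile and median normalization, variance models, array weights, the replicate block, the Xist and marker terms, fits within Xist-high and Xist-low arrays, and each array left out. Matplotlib 3.10.9 drew the plots.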

Additional observations from a re-analysis of the deposited data

Results flagged for a closer look

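The Foxo1 probe set 1416982_at had 1 array apart from the 3 others in each genotype. In wild type, array 2 read 1457 against 1604 to 1615 on the others, and in Irf4 null, array 2 read 839 against 1112 to 1139. These were 2 of 62 groups of 4 signals examined; chance flags about 1 in 20 groups. The lowest wild-type value, 1457, was above the highest Irf4 null value, 1139.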

How the results depend on the processing

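The count of called probe sets, 950, was 555 without a variance trend, 1746 with array weights, 592 with the marker covariate, 322 within the Xist-high and 117 within the Xist-low arrays, and 466 to 2172 with 1 array left out, the highest without wild-type array 2. The 2 member calls became 4 with array weights (Klf13 and 3 of Foxo1), 4 with the Xist-high term (2 each of Klf6 and Foxo1), 5 with the marker covariate (1 of Klf4, 3 of Klf6, 1 of Foxo1), 0 within the Xist-high and 0 within the Xist-low arrays, 0 at 1 probe set per gene and 1 with gene means (these last 2 chosen after seeing the data), and 1 to 7 with 1 array left out (7 without wild-type array 2: 3 each of Foxo1 and Satb1, 1 of Klf13). Calls in related lists, 16 genes, were 31 with array weights, 4 within the Xist-low arrays, and 11 to 40 with 1 array left out. Deviations of same-numbered arrays from their group means correlated at 0.24, 0.28, -0.030 and -0.081. The values for arrays 1 and 2 were the highest between any wild-type and any null array. In both cases the 2 arrays also lie on the same side of the Xist split. Whether the numbers pair the arrays is therefore not settled. With the replicate block, 1168 probe sets, 5 member probe sets (2 of Klf6, 3 of Foxo1) and 26 related genes were called.

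Of 681 member values under 22 alternatives, 632 kept direction and side of the threshold, 21 became called, 7 lost a call (all Foxo1) and 21 changed sign, none of them from a called value. The sign changes within the Xist-low arrays were Klf3 1442920_at (0.045), Klf7 1449439_at (0.081), Foxo3 1434832_at (0.049) and the 5 Satb1 probe sets (0.18, 0.28, 0.48, 0.041 and 0.26). Within the Xist-high arrays Klf3 1429360_at was at 0.087. Satb1 1416008_at and 1436182_at were at 0.024 and 0.059 with the Xist-high term and at 0.064 and 0.089 with the marker covariate. Klf3 1431630_a_at was at -0.013 with arrays centred on their medians and -0.014 without wild-type array 2, and Klf3 1442920_at at 0.023 without wild-type array 3 and 0.040 without Irf4 null array 4. Klf4 1417394_at was at 0.0091 without wild-type array 2, and 1417395_at at 0.063 with array weights, 0.099 without wild-type array 2 and 0.019 without Irf4 null array 1. With 1 array left out these 4 ranged from -0.014 to 0.11, -0.10 to 0.040, -0.33 to 0.0091 and -0.21 to 0.099, in that order. The cause was not tested. Foxo1 kept values below 0 in all 22 alternatives; within each Xist subset 1 array stands against 3 and is assumed to vary like the others.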
